A study of Mus musculus with 11 samples.

Results

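The Ifitm family encodes small interferon-induced transmembrane proteins. Its level was followed here in RNA-Seq counts of hematopoietic stem cells (HSC) from mice of 3 genotypes. The members were chosen by gene symbol, as the 5 genes Ifitm1, Ifitm2, Ifitm3, Ifitm5 and Ifitm6 of 37991 gene IDs counted. The family itself was selected on results of these same libraries, so the members' own levels and fold changes are given as a description, with no p-value. Where calls among the members are counted, nothing is read from the count. The groups were NA10hd (4 libraries), NV (3 libraries) and control HSC (4 libraries). NA10hd mice carried the NUP98-HOXA10HD fusion with a 3xFlag tag in the ROSA26 locus behind a loxP-stop-loxP cassette, opened by Vav-Cre. NV mice carried the NrasG12D allele, which the study opened with Vav-Cre, while control mice were labelled wild type and the study's methods describe littermates. Vav-Cre acts in hematopoietic cells in general, so both changes were present in the other blood cells of these mice as well as in HSC. All mice were C57BL/6 and 8 weeks old, and each library came from 1000 bone marrow cells sorted as Lin- CD48- c-Kit+ Sca1+ CD135- CD150+, whose polyA RNA was amplified as cDNA.

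Ifitm proteins sit in cell membranes and hinder the fusion of enveloped viruses with the cell. Ifitm3 acts mainly in endosomes and Ifitm1 largely at the cell surface, while Ifitm5, also named Bril, is a protein of bone-forming osteoblasts. In most cells type I and type II interferons raise the genes through Jak kinases, and stem cells of several tissues hold high levels of some members without added interferon. Ifitm6 has been described in myeloid cells.

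The 5 members lie in 1 cluster of mouse chromosome 7, over 67930 bases from 148134862 to 148202791 in build NCBIM37. Ifitm1 (ENSMUSG00000025491, bases 148153120 to 148155724) is read from the plus strand. Ifitm5 (ENSMUSG00000025489, 148134862 to 148136138), Ifitm2 (ENSMUSG00000060591, 148140736 to 148141882), Ifitm3 (ENSMUSG00000025492, 148195485 to 148196669) and Ifitm6 (ENSMUSG00000059108, 148201711 to 148202791) are read from the minus strand. For each of the 3 members that HSC expressed, the 250 bases before an annotated transcript start are shown, 5′ to 3′ on the gene's strand. Capitals mark matches to the core of the interferon-stimulated response element (ISRE, GAAANNGAAA) or to the gamma-activated site (GAS, TTCNNNGAA), both searched on both strands.
Ifitm1, chr7:148153689-148153938, plus strand: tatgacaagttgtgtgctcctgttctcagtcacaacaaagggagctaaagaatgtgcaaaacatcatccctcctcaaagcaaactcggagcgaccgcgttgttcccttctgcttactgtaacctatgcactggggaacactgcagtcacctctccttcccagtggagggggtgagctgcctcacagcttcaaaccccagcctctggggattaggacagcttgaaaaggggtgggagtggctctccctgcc
Ifitm2, chr7:148141883-148142132, minus strand: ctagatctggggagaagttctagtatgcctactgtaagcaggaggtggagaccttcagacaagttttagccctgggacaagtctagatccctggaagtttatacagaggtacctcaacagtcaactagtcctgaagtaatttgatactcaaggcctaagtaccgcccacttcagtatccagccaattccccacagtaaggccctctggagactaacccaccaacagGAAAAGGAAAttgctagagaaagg
Ifitm3, chr7:148196670-148196919, minus strand: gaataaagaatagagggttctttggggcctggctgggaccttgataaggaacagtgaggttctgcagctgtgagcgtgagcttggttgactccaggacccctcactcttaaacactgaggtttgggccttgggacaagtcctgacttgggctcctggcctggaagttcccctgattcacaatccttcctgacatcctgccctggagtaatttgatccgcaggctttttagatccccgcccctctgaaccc
Ifitm3, past the start, chr7:148196614-148196642, minus strand: gGAAAAGGAAAcTTCTGAGAAACCGAAAc

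The search ran over 350 bases, from 250 before to 100 after each annotated start. Ifitm2 held 1 ISRE core match, from 24 to 15 bases before its start. Ifitm3 held 2 ISRE core matches past its annotated start, at bases 29 to 38 and 46 to 55, and a GAS match at bases 40 to 48 that overlaps the latter. The 3 annotated starts of Ifitm1 (148153120, 148153927 and 148153939) held no ISRE core match in the window. The last of them held a GAS match at bases 91 to 99. The window ends at base 100, so an ISRE core match overlapping that GAS match, placed as in Ifitm3, would run past it unseen. Ifitm5 held neither motif and Ifitm6 held 1 GAS match. An ISRE core match was present at 4.01% of 46006 protein-coding transcript starts and a GAS match at 8.75%. Of the 204 starts of interferon response genes, 41.2% held an ISRE core match. Counted by gene, 46 of 83 interferon response genes (55.4%) held one at 1 or more starts, beside 6.42% of all 22232 genes. A match is a run of letters and not a shown binding site, and its absence says only that the letters are not in the window.

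The coding sequences of the 3 expressed members start as follows, and are shown because the early part of the protein is where Ifitm1 differs from the others. Capitals mark 4 codons that read as tyrosine, 2 residues of any kind and then a leucine, isoleucine, methionine, phenylalanine or valine, the form of an endocytic sorting signal.
Ifitm1, first 150 coding bases: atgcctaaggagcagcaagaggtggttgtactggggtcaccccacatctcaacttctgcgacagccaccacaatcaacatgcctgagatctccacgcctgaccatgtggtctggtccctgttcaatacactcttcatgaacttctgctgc
Ifitm2, first 150 coding bases: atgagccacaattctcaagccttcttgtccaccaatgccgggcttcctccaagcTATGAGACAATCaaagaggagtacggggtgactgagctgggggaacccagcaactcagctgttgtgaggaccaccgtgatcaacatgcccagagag
Ifitm3, first 150 coding bases: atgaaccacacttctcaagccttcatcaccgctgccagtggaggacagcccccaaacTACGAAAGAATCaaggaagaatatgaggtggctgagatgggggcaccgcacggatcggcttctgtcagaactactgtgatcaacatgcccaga

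This form was found at residue 20 of Ifitm3 and at residue 19 of Ifitm2, and not within the first 50 residues of Ifitm1, Ifitm5 or Ifitm6. The encoded proteins are 106 residues (Ifitm1), 144 (Ifitm2), 137 (Ifitm3), 134 (Ifitm5) and 104 (Ifitm6) long. Over aligned residues, with gaps left out, Ifitm1 was 74.5% identical to Ifitm3 and 72.6% to Ifitm2, and Ifitm2 was 75.6% identical to Ifitm3. Ifitm5 was the most distant member, at 36.5% to 43.2% identity with the other 4. No run of 75 bases was shared between the transcripts of any 2 members. Of the runs of 50 bases, 5.02% in Ifitm1, 11.1% in Ifitm2 and 10.02% in Ifitm3 also occurred in another member or in the predicted genes Gm7676 or Gm5331. The read length and the treatment of reads that map to several places were not given in the sources used here, so reads from these stretches may be split or lost.

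The libraries held 5464815 to 14283008 counts, with 13859 to 15900 genes detected. The level of a gene is given as CPM, counts scaled to a common library size with TMM (trimmed mean of M-values) factors, and the 12 long-term HSC markers summed to 2543 to 3977 CPM over the 11 libraries. NA10hd replicate 4 had the fewest genes detected and held Xist but none of the Y-linked transcripts. The other NA10hd libraries and control replicates 1 and 4 held Y-linked transcripts only, while control replicates 2 and 3 and the NV libraries held both. Of the targeted genes, Nras stood at 83.9 ± 12.3 CPM in control and 112 ± 1.37 CPM in NV HSC (SD), and Hoxa10 at 39.7 ± 3.29 CPM and Nup98 at 16.5 ± 3.34 CPM in control against 57.1 ± 20.7 CPM and 17.6 ± 13.1 CPM in NA10hd HSC (SD). Counts per gene do not separate the introduced alleles from the native ones. In bulk libraries of this kind, fewer cells of a type and less RNA per cell cannot be told apart.

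In control HSC, Ifitm1 and Ifitm3 were among the most abundant transcripts, in place 63 and place 100 of all genes by mean CPM, with Ifitm2 in place 806. Per kilobase of exon, over all annotated exons of a gene, the control level was 1457 ± 128 CPM per kb for Ifitm3 (SD, n = 4), 1334 ± 118 for Ifitm1 and 291 ± 51.6 for Ifitm2. Within each control library Ifitm3 stood above Ifitm1 per kilobase, at 1593 against 1382, 1289 against 1173, 1505 against 1451 and 1441 against 1330 CPM per kb in replicates 1 to 4. The gap was small beside the range over libraries, and Ifitm2 stood well below both. The gap had the same direction in all 4 libraries, but each was divided by the same lengths, 1094 bases for Ifitm1 and 678 for Ifitm3. By CPM, without this division, Ifitm1 stood at 1459 ± 129 and Ifitm3 at 988 ± 87.0 in control HSC (SD). The order of Ifitm1 and Ifitm3 thus depends on the length taken, and which transcript of Ifitm1 was expressed was not tested.

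Ifitm1, the cell-surface member, was lower in NV HSC than in control HSC in every library. It stood at 1512, 1284, 1587 and 1454 CPM in control replicates 1 to 4, and at 454, 389 and 402 CPM in NV replicates 1 to 3. The highest NV library was below the lowest control library by a wide margin. The mean fell from 1459 ± 129 (SD, n = 4) to 415 ± 34.6 CPM (SD, n = 3), which is 3.51-fold lower. The log2 fold change from edgeR was -1.82 ± 0.11 (SE), with the SE of each log2 fold change worked out from edgeR's F statistic. Its place among all genes by mean CPM went from 63 to 251. Counted from the lowest log2 fold change, Ifitm1 was in place 259 of the 13462 genes tested.

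Ifitm3, the endosomal member, and Ifitm2 differed much less between NV and control HSC. Ifitm3 stood at 1080, 874, 1020 and 977 CPM in control replicates 1 to 4 and at 819, 781 and 795 CPM in NV replicates 1 to 3. The groups did not overlap, but the lowest control and the highest NV library were close. The log2 fold change of Ifitm3 was -0.31 ± 0.09 (SE). Ifitm2 stood at 157, 193, 235 and 174 CPM in control replicates 1 to 4 and at 139, 141 and 136 CPM in NV replicates 1 to 3. Its NV libraries lay just below the lowest control library, and its log2 fold change was -0.45 ± 0.14 (SE). Of the 13462 genes tested in this comparison, 9.37% had all NV libraries below all control libraries, which Ifitm1, Ifitm2 and Ifitm3 all had. Genes were called DEGs (differentially expressed genes) where edgeR's quasi-likelihood test gave an adjusted p under 0.05 with more than 1.5-fold difference. Of the 4 members tested, 1 (Ifitm1) was called lower, beside 2.21% of all genes tested, and nothing is read from that count because the family was put forward with this contrast known. Ifitm1 was called in 16 of 16 settings, Ifitm2 and Ifitm3 in 0 of 16, and Ifitm5 in 1 of the 10 settings where it passed the filter.

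**Figure D1:**
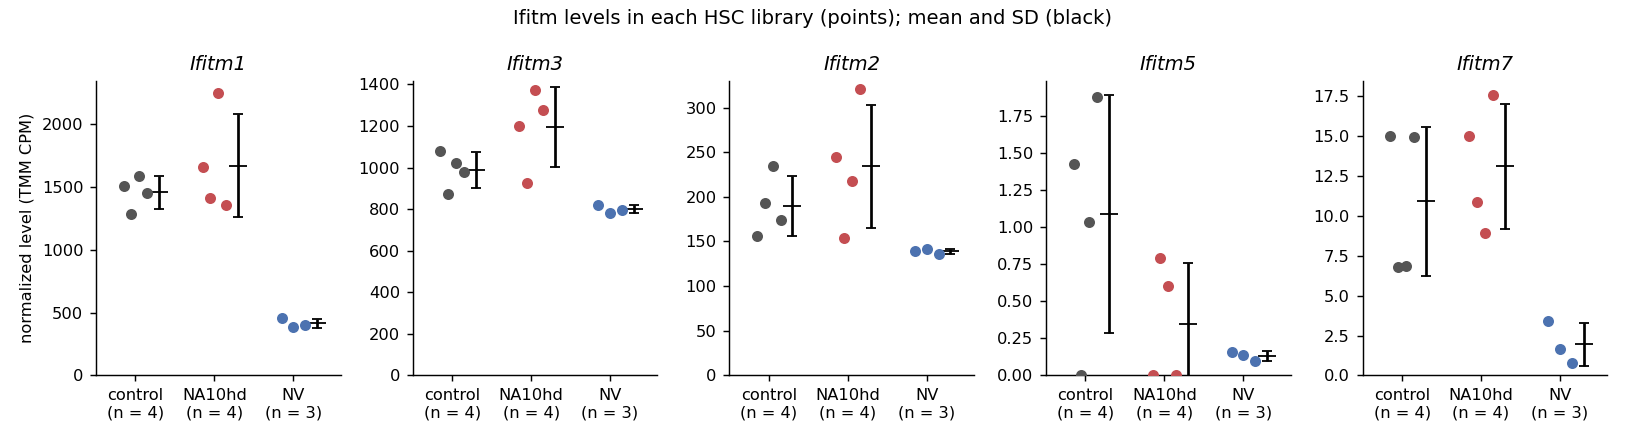
Normalized level (CPM scaled by TMM, each vertical axis linear and starting at 0) of Ifitm1, Ifitm3, Ifitm2, Ifitm5 and Ifitm7 in each HSC library, with points for libraries grouped as control, NA10hd and NV and black bars for the mean and SD. The 3 NV libraries sit at 389 to 454 CPM for Ifitm1 against 1284 to 1587 CPM in control HSC, while for Ifitm3 and Ifitm2 they sit just under the control libraries.

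The make-up of the family's transcripts therefore differed between NV and control HSC, and a ratio of 2 genes within a library does not depend on scaling between libraries. Ifitm1 made up 55.3% ± 0.597 of the family's counts in control HSC (SD, n = 4), 53.7% ± 5.57 in NA10hd HSC (SD, n = 4) and 30.7% ± 1.32 in NV HSC (SD, n = 3). Ifitm3 made up 37.5% ± 1.40, 38.6% ± 3.25 and 59.0% ± 0.934 in the same groups, and Ifitm2 made up 7.21% ± 1.24, 7.63% ± 2.34 and 10.3% ± 0.462. The count ratio of Ifitm1 to Ifitm3 lay between 1.40 and 1.56 in control, between 1.07 and 1.64 in NA10hd and between 0.498 and 0.555 in NV libraries. Ifitm1 was thus the more counted gene in all 8 control and NA10hd libraries, and Ifitm3 in all 3 NV libraries. NA10hd replicate 4, the library with the fewest genes detected, gave the ratio of 1.07, and the other 3 NA10hd libraries lay at 1.38 or above. The count ratio of Ifitm3 to Ifitm2 was 5.35 ± 1.17 in control HSC (SD, n = 4), 5.30 ± 1.06 in NA10hd HSC (SD, n = 4) and 5.75 ± 0.195 in NV HSC (SD, n = 3), so these members kept about the same proportion. Summed over the 5 members, the family stood at 2638 ± 215 CPM in control HSC, 3101 ± 559 CPM in NA10hd HSC and 1353 ± 53.5 CPM in NV HSC.

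**Figure D2:**
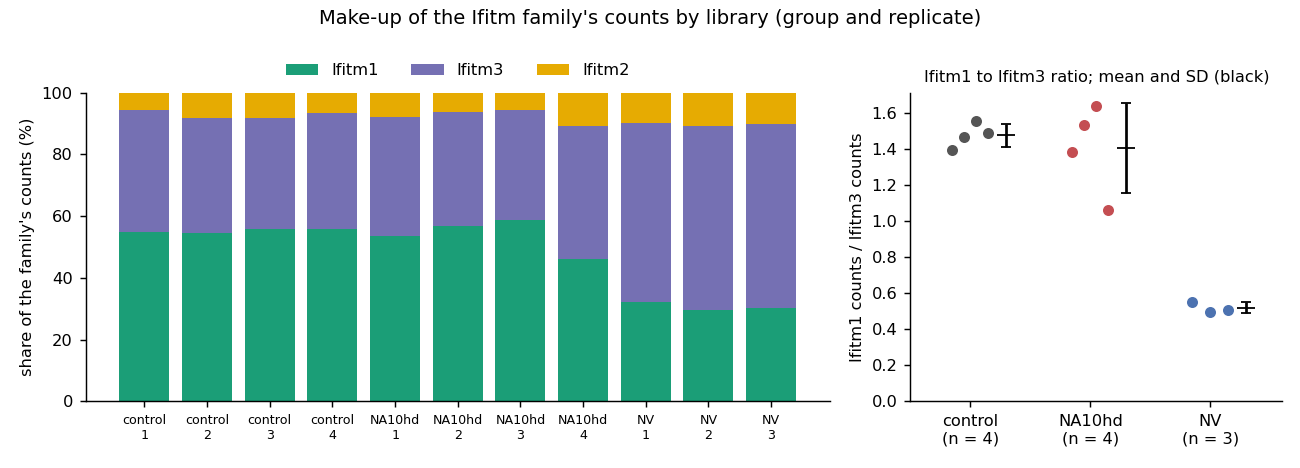
Left, the share of the family's counts (percent) held by Ifitm1, Ifitm3 and Ifitm2 in each library, named by group and replicate, with Ifitm5 at 0.0722% or less in every library and not visible. Right, the ratio of Ifitm1 to Ifitm3 counts in each library with the mean and SD in black; the NV libraries lie at 0.498 to 0.555 and every other library lies above 1.

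In NA10hd HSC the 3 expressed members stood close to control HSC. Ifitm1 was at 1663, 1418, 2253 and 1359 CPM in NA10hd replicates 1 to 4, a range that covers most of the control range and goes above it in 2 libraries. Ifitm3 was at 1202, 924, 1372 and 1275 CPM, with 3 of 4 libraries above the highest control library. Ifitm2 was at 244, 154, 217 and 321 CPM, from just under the lowest to above the highest control library. The log2 fold changes against control HSC were 0.20 ± 0.17 for Ifitm1, 0.28 ± 0.15 for Ifitm3 and 0.30 ± 0.21 for Ifitm2 (SE). The groups overlapped for each of the 3, and 7.83% of the 13060 genes tested had groups that did not. None of the 3 members tested was called higher or lower, and edgeR called 0.0% of all genes higher and 0.00766% lower in this comparison. The absence of calls does not show that NA10hd and control HSC were alike. With 1 library left out at a time, the log2 fold change of Ifitm1 ran from 0.017 (without NA10hd replicate 3) to 0.29 (without NA10hd replicate 4). That of Ifitm2 ran from 0.12 (without NA10hd replicate 4) to 0.46 (without NA10hd replicate 2), and that of Ifitm3 from 0.20 to 0.38.

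Compared directly, NA10hd HSC held 4.03-fold the Ifitm1 level of NV HSC by group means, with a log2 fold change of 2.01 ± 0.20 (SE). The lowest NA10hd library for Ifitm1, at 1359 CPM, was above the highest NV library at 454 CPM. For Ifitm2 the log2 fold change was 0.74 ± 0.22 and for Ifitm3 it was 0.57 ± 0.16 (SE). All 3 members were higher in every NA10hd than in every NV library, which 9.63% of the 13461 genes tested were. Ifitm1 was the 1 member of 3 tested that was called higher, beside 2.3% of all genes tested, and nothing is read from that count either. Over the 15 settings of this comparison Ifitm1 was called in 15, Ifitm2 in 4 and Ifitm3 in 2. The 2 comparisons with control HSC share the control libraries, and the 2 comparisons with NV HSC share the NV libraries, so these values are not separate evidence. The order of the Ifitm1 levels was therefore NA10hd, control and NV, where NA10hd and control did not differ beyond their spread. The order was the same for Ifitm2 and Ifitm3, with smaller steps to NV HSC than for Ifitm1.

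**Figure D3:**
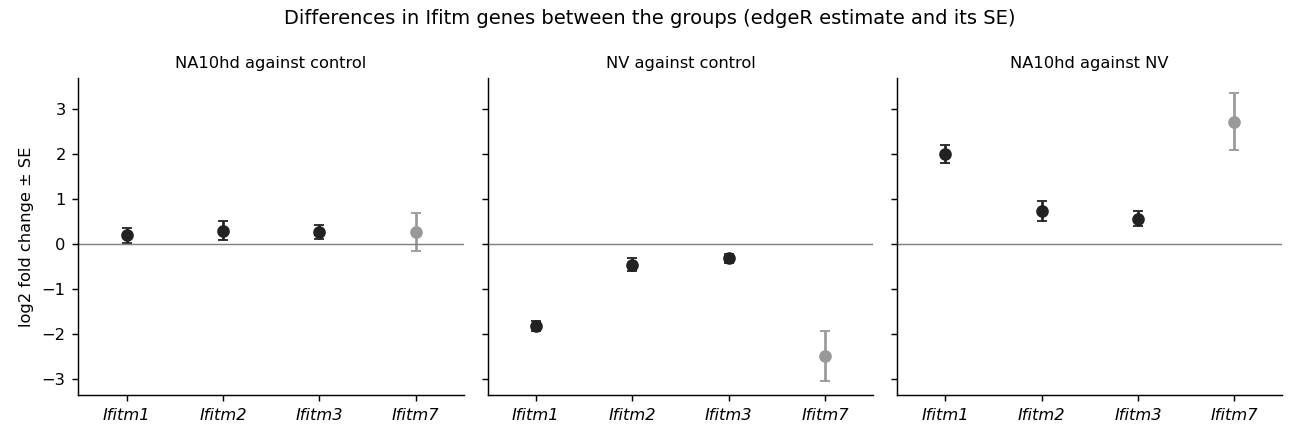
The log2 fold change estimated by edgeR, with an SE worked out from its F statistic (vertical axis), for Ifitm1, Ifitm2 and Ifitm3 (black) and for Ifitm7 (grey, not in the cluster) in the 3 comparisons, with the first named group over the second. Against control, Ifitm1 lies at -1.82 in NV HSC and at 0.20 in NA10hd HSC, while Ifitm2 and Ifitm3 lie within 0.5 of 0 in both.

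Ifitm5, the osteoblast member, was near the limit of detection. Its counts were 8, 0, 13 and 14 in control replicates 1 to 4, 0, 10, 7 and 0 in NA10hd replicates 1 to 4, and 2, 2 and 1 in NV replicates 1 to 3. Pooled by group this was 35 counts or 0.975 CPM of the total counts in control HSC (exact Poisson 95% interval 0.679 to 1.36), 17 counts or 0.422 CPM in NA10hd HSC (0.246 to 0.676) and 5 counts or 0.137 CPM in NV HSC (0.0444 to 0.319). These intervals cover counting error only, while 1 control and 2 NA10hd libraries had no count at all. Ifitm5 passed the filter on low counts in NV against control alone, where its log2 fold change was -2.92 ± 1.20 (SE), and control replicate 2, with no count, lay below all NV libraries.

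Ifitm6, the myeloid member, had no count in any of the 11 libraries. Over the 112761488 counts of all libraries together, a count of 0 has an exact Poisson 95% upper limit of 0.0327 CPM, and 3 counts would be 0.0266 CPM. Among 12 myeloid markers Ctsg was likewise at 0 in all libraries, and the 12 summed to 747 to 949 CPM over the control, 834 to 1073 CPM over the NA10hd and 751 to 804 CPM over the NV libraries. Nearly all of this sum was Lyz2 (493 CPM in control HSC) and Prtn3 (338 CPM in control HSC), while the other 10 had means under 2 CPM in each group. Only 4 of these 12 passed the filter on low counts in NA10hd or NV against control, and 5 passed in NA10hd against NV.

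Outside the cluster, Ifitm7 (ENSMUSG00000065968, chromosome 16, bases 13981795 to 13986948, minus strand) is named for the family and is not a member here. It stood at 15.01, 6.82, 6.86 and 14.9 CPM in control replicates 1 to 4, at 14.996, 10.9, 8.90 and 17.6 CPM in NA10hd replicates 1 to 4, and at 3.42, 1.62 and 0.773 CPM in NV replicates 1 to 3. All NV libraries were below all others, while the 2 control libraries with Y-linked transcripts only were the 2 high ones. Ifitm7 fell in NV against control HSC, with a log2 fold change of -2.47 ± 0.55 (SE, edgeR adjusted p = 0.0223), and was higher in NA10hd than in NV HSC by 2.73 ± 0.64 (adjusted p = 0.0347). The first call was lost against the control libraries that held both Xist and Y-linked transcripts (log2 fold change -1.81, adjusted p = 0.226, the highest over the alternatives, whose lowest was 0.000250) and on leaving out control replicate 1 or 4 or NV replicate 2 or 3. The second call was lost with a replicate block and without NA10hd replicate 1 or NV replicate 2 or 3, with adjusted p up to 0.164. The part of sex in this difference was not tested beyond that value. Its log2 fold change in NA10hd against control was 0.27 ± 0.42 (adjusted p = 0.850). Ifitm10 had 3 counts in control replicate 4 and none elsewhere.

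Interferon response genes were read from a list of 83 genes that holds no Ifitm gene, of which 82 were matched to 1 gene ID. In NV HSC 16 of the 80 tested rose against control HSC and none fell, beside 2.55% of all genes tested that were called higher. Their median log2 fold change was 0.39, beside -0.01 over all genes, and 73 of the 80 had a value above 0. The lowest of the 80 were -1.67 ± 0.77 (SE) for Phf11d (adjusted p = 0.255) and -1.31 ± 0.44 (SE) for Slfn2, a growth regulator of the Schlafen family (adjusted p = 0.113). Slfn2 was called lower in 3 of 16 settings, with log2 fold changes from -1.90 to -0.83 over them all. Oas2, which makes the 2'-5' oligoadenylates that activate RNase L, rose from 33.8 ± 10.01 CPM (SD, n = 4) to 150 ± 20.0 CPM (SD, n = 3), by 2.14 ± 0.21 on the log2 scale (edgeR adjusted p = 0.000272). Its relatives Oas3 (1.498 ± 0.21, adjusted p = 0.00221) and Oas1g (1.08 ± 0.25, adjusted p = 0.0258) rose too, with Oas1g called in 8 of 16 settings. So did the antiviral GTPase gene Mx1 (1.52 ± 0.34, adjusted p = 0.0205, called in 12 of 16 settings with adjusted p up to 0.108) and Ifi27 (1.07 ± 0.19, adjusted p = 0.00758, called in 15 of 16 settings), which is annotated as Ifi27l1 in this build. The count of 16 was 6 without NV replicate 2 and 7 without NV replicate 3.

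Of 22 genes of interferon receptors and signalling, 4 rose in NV HSC and none fell, beside 2.55% of all genes tested that were called higher. Among them Irf9, a factor that binds ISRE sites, rose by 0.63 ± 0.12 on the log2 scale (edgeR adjusted p = 0.0104), and was called in 11 of 16 settings, with adjusted p up to 0.0655. Irf7, an interferon-induced factor, rose by 1.51 ± 0.20 (adjusted p = 0.00169), and Usp18, a brake on the type I receptor, rose by 1.43 ± 0.21 (adjusted p = 0.00227). Irf7 and Usp18 were called under all 15 alternative settings of this comparison. The median of the 22 was 0.14.

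In NA10hd against control HSC, edgeR called 0 of the 78 interferon response genes tested, beside 0.0% of all genes called higher and 0.00766% lower. Of the 78, 16 had an unadjusted p under 0.05, all with a log2 fold change above 0. Of all 13060 genes tested, 11.9% had such a p, 865 with a log2 fold change above 0 and 687 below. DESeq2 called 1 of the 78. Their median log2 fold change was 0.13, beside 0.02 over all genes. None of the 22 receptor and signalling genes was called by edgeR, while DESeq2 called 2 and edgeR's unadjusted p was under 0.05 for 5. In NA10hd against NV HSC, 7 of 79 interferon response genes were called, 6 lower and 1 higher, beside 2.79% of all genes tested that were called lower. Oas2 was lower in NA10hd HSC by 2.08 ± 0.23 on the log2 scale (adjusted p = 0.000779), at 35.8 ± 8.94 against 150 ± 20.0 CPM. The gene called higher was Slfn2, at 46.6 ± 7.27 CPM in NA10hd and 15.99 ± 3.05 CPM in NV HSC (1.54 ± 0.27, adjusted p = 0.00954), the direction in which Ifitm1 differed. The count of 7 was 4 without NV replicate 1 or NV replicate 2 and 1 without NV replicate 3, and Slfn2 was not called without NV replicate 1 or 3.

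**Figure D4:**
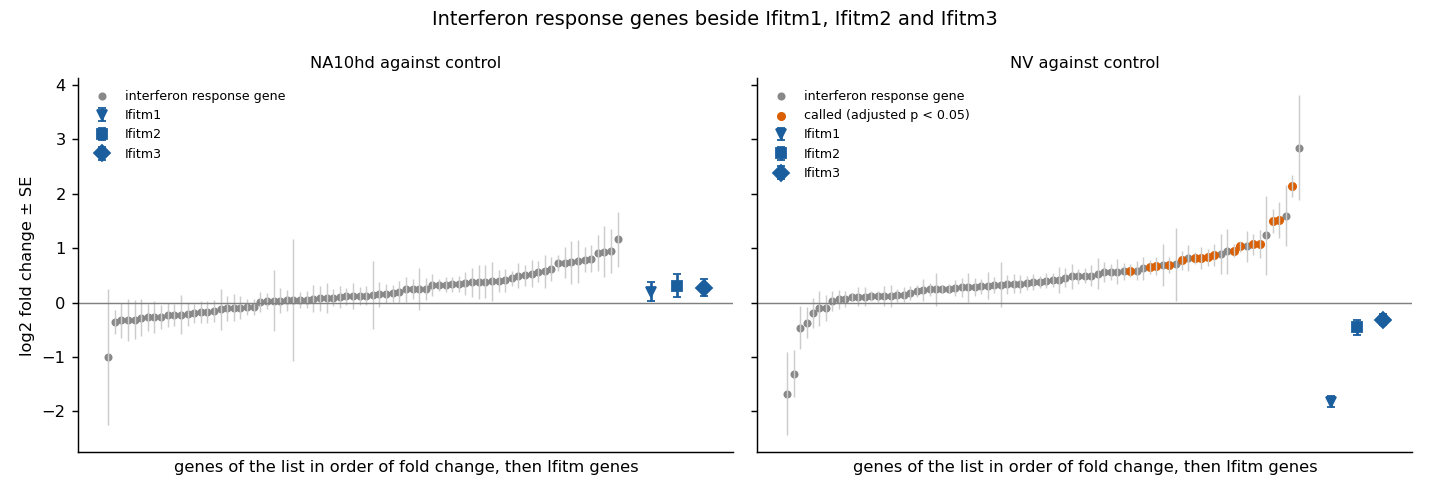
The log2 fold change and its SE (vertical axis) of each interferon response gene tested, ordered by value along the horizontal axis, in NA10hd and NV against control HSC, followed by Ifitm1, Ifitm2 and Ifitm3 (blue). In NV HSC the 16 genes called (orange) all lie above 0, and Ifitm1 lies at -1.82, near the lowest gene of the list (-1.67 ± 0.77).

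Of 7 genes for enzymes and partners of Ifitm3 (the palmitoyltransferase Zdhhc20, the ubiquitin ligase Nedd4, the methyltransferase Setd7, the demethylase Kdm1a, Vapa, Zmpste24 and the tetraspanin Cd81), edgeR called none in any comparison. At an unadjusted p under 0.05, 4 stood out in NV against control, where 19.5% of all genes did, 0 in NA10hd against control and 1 in NA10hd against NV, and neither DESeq2 nor limma-voom called any. With edgeR, 1 of the 7 (Kdm1a) was called lower in NA10hd against NV without NA10hd replicate 1. In NV against control the 7 ran from -0.48 (Zmpste24) to 0.40 (Setd7) on the log2 scale.

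The genes next to the cluster were read beside its members. Of 11 protein-coding genes that start within 100 kb of the cluster, 8 passed the filter. In each comparison edgeR called 0 of the 8, with 1 of the 8 at an unadjusted p under 0.05. Over all genes tested, 19.5% had such a p in each comparison with NV HSC and 11.9% in NA10hd against control. The shares called higher and lower were 2.55% and 2.21% in NV against control and 2.3% and 2.79% in NA10hd against NV. In NA10hd against control they were 0.0% and 0.00766%. At these shares 0 of 8 does not show that the neighbours were unchanged. DESeq2 called 1 in each of the 2 comparisons with NV HSC and limma-voom none. In NV against control, Athl1, the nearest tested gene on the Ifitm5 side, had a log2 fold change of 0.08 ± 0.23 (SE, adjusted p = 0.901), and Sirt3, a mitochondrial deacetylase, had 0.06 ± 0.11 (adjusted p = 0.848). Ric8 (0.05 ± 0.14), Bet1l (0.01 ± 0.16), Psmd13 (0.29 ± 0.26), Pkp3 (0.14 ± 0.29) and Sigirr (-0.02 ± 0.15) were likewise within about 1 SE of 0. B4galnt4, on the Ifitm6 side, had -1.07 ± 0.34 (adjusted p = 0.0928) and was called under 2 of 15 alternative settings, with adjusted p from 0.0407 to 0.500. Cox8b and Gm17387 were at 0 CPM in every group, and Nlrp6 reached a mean of 1.45 CPM in NV HSC alone. In NA10hd against control the 8 ran from -0.23 (Psmd13) to 0.80 (Pkp3), with 7 of 8 above 0.

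**Figure D5:**
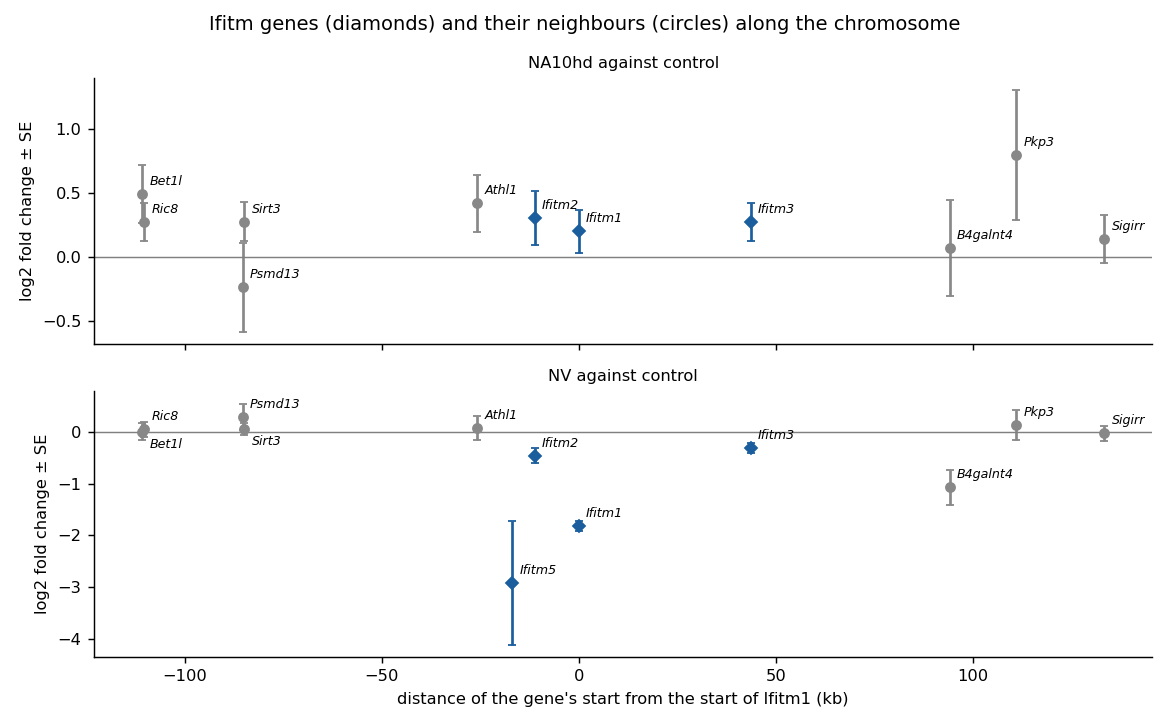
The log2 fold change and its SE (vertical axis) of the Ifitm members (blue diamonds) and of the 8 tested neighbours (grey circles) by the distance in kb from the start of Ifitm1 to the start of each gene, for NA10hd (top) and NV (bottom) against control HSC. In NV HSC Ifitm1 lies at -1.82 while Ifitm2 and Ifitm3 on either side lie at -0.45 and -0.31, and the neighbours other than B4galnt4 lie within 0.3 of 0. Ifitm5, drawn for NV HSC only, lies lowest at -2.92 ± 1.20 and rests on 35 pooled counts in control and 5 in NV HSC.

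The genes whose pattern over the 11 libraries lay closest to each member were named by the root mean square difference of centred log2 CPM, over 14012 other genes. Closest to Ifitm1 were Socs2, a feedback inhibitor of cytokine signalling (difference 0.258), Gimap5, a GTPase gene of lymphocytes (0.348), and Lhcgr, the luteinizing hormone receptor gene (0.366). Socs2 stood at 106 ± 18.8 CPM in control, 138 ± 34.8 CPM in NA10hd and 37.8 ± 8.30 CPM in NV HSC (SD). Ifitm3 was place 601 and Ifitm2 place 670 in likeness to Ifitm1, at 0.670 and 0.681. Among the closest to Ifitm3 were Rpl19 (0.0868) and Cbr1 (0.0961), and closest to Ifitm2 were the translation initiation factor gene Eif1 (0.107), 1500012F01Rik (0.112) and Rps24 (0.127). Rpl19 and Rps24 encode ribosomal proteins. The points share depth and library, so the measure is a description.

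Markers of other cell types also differed between NV and control HSC, and their part in the Ifitm1 difference was not tested. The counts of markers called stand beside 2.55% of all genes tested that were called higher and 2.21% that were called lower. Of the 12 long-term HSC markers tested, 4 were called: Procr (-0.72 ± 0.13, adjusted p = 0.00871), Mllt3 (-0.74 ± 0.14) and Fgd5 (-1.13 ± 0.27) fell, and Ly6a, which encodes the sort marker Sca1, rose (0.70 ± 0.14). The summed level of the 12 was 2873 to 3627 CPM in control and 2543 to 3013 CPM in NV libraries, ranges that overlap. Of 8 megakaryocyte markers tested, 5 were called. Pf4 (2.91 ± 0.34), Ppbp, Itga2b and Treml1 rose and Vwf fell, and the summed level was 326 to 352 CPM in control and 302 to 629 CPM in NV libraries. Of the 8 erythroid markers the 2 tested (Klf1 and Epor) rose, with summed levels of 19.5 to 25.3 CPM in control and 42.6 to 82.2 CPM in NV libraries. Of the 8 endothelial markers 5 were tested and Emcn fell (-1.45 ± 0.22), with summed levels of 301 to 332 CPM in control and 254 to 290 CPM in NV libraries. None of the 5 progenitor, 5 lymphoid or 3 stromal markers tested was called, with 1 of each at an unadjusted p under 0.05, nor any of the 4 myeloid markers tested, with 0 at such a p. The stromal sum was 8.77 to 19.8 CPM in control and 3.96 to 8.66 CPM in NV libraries, which do not overlap. With 1 library left out at a time, the HSC markers called were 2 without NV replicate 2 and 1 without NV replicate 3, the erythroid markers 0 and 1, and the megakaryocyte markers 3 and 3. Against the control libraries that held both Xist and Y-linked transcripts, the HSC markers called were 0, the megakaryocyte markers 1 and the erythroid markers 1. Pf4 and Emcn were called in all 16 settings and Itga2b, Vwf and Epor in 15. Procr, Mllt3 and Ly6a were called in 13, Fgd5 in 10, Klf1 in 9, Ppbp in 7 and Treml1 in 6 of the 16. Megakaryocyte markers called were also 3 without NV replicate 1 or control replicate 1, 2 or 4, and erythroid markers 1 without control replicate 1 or 4. In NA10hd against control edgeR called no marker, with 2 HSC, 2 megakaryocyte and 1 endothelial marker at an unadjusted p under 0.05, while DESeq2 called 1 HSC marker (Procr). HSC marker sums were 3420 to 3977 CPM in NA10hd libraries. The endothelial marker sum was 387 to 459 CPM in NA10hd libraries, above all control libraries (301 to 332 CPM), and the other marker sums overlapped between these groups.

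Markers also differed between NA10hd and NV HSC, beside 2.3% of all genes tested that were called higher and 2.79% that were called lower, and their part in the Ifitm1 difference between these groups was not tested. Of 12 long-term HSC markers tested 5 were called, all higher in NA10hd HSC, with Procr at 1.41 ± 0.21 on the log2 scale and Mllt3 at 1.18 ± 0.15 (SE). Of 8 megakaryocyte markers 4 were called, with Pf4 (-3.42 ± 0.39), Itga2b and Ppbp lower and Vwf higher in NA10hd HSC. The endothelial markers Kdr (1.65 ± 0.34) and Emcn (1.57 ± 0.28) and the myeloid marker Prtn3 (0.75 ± 0.18) were higher, and the erythroid marker Klf1 (-4.25 ± 0.88) and the lymphoid marker Nkg7 (-2.58 ± 0.60) were lower. The endothelial sum was 387 to 459 CPM in NA10hd against 254 to 290 CPM in NV libraries, the HSC sum 3420 to 3977 against 2543 to 3013 CPM and the erythroid sum 19.8 to 32.3 against 42.6 to 82.2 CPM, none of which overlap. Nor did the myeloid sum (834 to 1073 against 751 to 804 CPM) or the stromal sum (12.9 to 26.1 against 3.96 to 8.66 CPM) overlap. Without NV replicate 2 or NV replicate 3, the HSC markers called were 2, the megakaryocyte markers 1 and the others 0. Without NV replicate 1 they were 3 and 2, with 1 erythroid and 1 endothelial marker called. The myeloid call was also lost without NA10hd replicate 1 or 3, and the lymphoid call without NA10hd replicate 2.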

How the data were processed

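The deposited table held raw counts per gene, which the authors made by aligning NextSeq500 reads to mouse build NCBIM37 with Hisat2 and counting with featureCounts (versions not given in the sources used here). Libraries were prepared with Nextera XT, which marks no strand. The authors used DESeq2 for DEGs. No column of other samples was present (0).

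Each pair of groups was fitted on its own libraries with edgeR 4.0.16 in R 4.3.3, using filterByExpr, TMM and the quasi-likelihood test, with Benjamini-Hochberg adjustment over all genes tested and DEGs where the adjusted p was under 0.05 with more than 1.5-fold difference. The SE of a log2 fold change was its absolute value over the square root of the F statistic, as the quasi-likelihood test prints no SE. CPM used TMM factors over all 11 libraries. The fit was tested on simulated data. Totals of 5464815 to 14283008 counts per library limit low genes such as Ifitm5. Symbols were given for 37205 of 37991 gene IDs by GENCODE vM1 on NCBIM37, and sequences came from that genome and its transcripts. Proteins were aligned globally (match 1, mismatch -1, gap -2).

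The members and gene lists were chosen with earlier results of these data known. Named genes were the members, Ifitm7 and Ifitm10, protein-coding neighbours within 100 kb, up to 5 called genes per list and direction with the largest fold changes, and the 3 closest genes to each member with a mean of at least 10 CPM. Phf11d was named after its value was seen, as were genes named as all members of a short list. Nras, Hoxa10 and Nup98 were also fixed. Some genes that this rule names are not reported here. The study calls its replicates biological while the labels name no animals, and sex-linked transcripts differed between libraries of a group, so p-values measure the spread between these libraries. Alternatives were DESeq2 1.42.0, limma-voom (limma 3.58.1), other size factors, other filters, 1 fit over all groups, a replicate block, libraries of like sex-linked transcripts, and each library left out.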

Additional observations from a re-analysis of the deposited data

Results flagged for a closer look

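In NA10hd against NV HSC, which measures how the effects of the genotypes differ, 8 genes related to the Ifitm family by name or by interferon are given here, each called by edgeR. Of these Ifitm7 (log2 fold change 2.73, adjusted p = 0.0347) and Slfn2 (1.54, adjusted p = 0.00954) were higher in NA10hd HSC. The other 6 were lower in NA10hd HSC. They were Oas2 (-2.08, adjusted p = 0.000779), Usp18 (-1.53, adjusted p = 0.0193), Oas3 (-1.14, adjusted p = 0.0256), Ifi47 (-0.99, adjusted p = 0.00675), Oas1a (-0.97, adjusted p = 0.0280) and Lgals9 (-0.91, adjusted p = 0.00613). In the groups of 4 libraries, no library of Ifitm1, Ifitm2, Ifitm3 or Ifitm7 lay farther from the others than Dixon's 95% critical value allows.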

How the results depend on the processing

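Of 144 recomputed fold changes of the members, 143 moved by less than the spread between replicates, and each kept its sign. The exception was Ifitm5 in NV against control, at -1.65 with limma-voom. The log2 fold change of Ifitm1 in NV against control ran from -1.89 to -1.78 over its 15 alternatives, including -1.79 against control libraries of the same mix of sex-linked transcripts and -1.82 with a replicate block. With CPM by library total, the NV levels of Ifitm2 (143) and Ifitm3 (822) moved by more than their SD.

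The replicate numbers did not pair the samples, since deviations of same-numbered libraries correlated at -0.09 to 0.03. With a replicate block the DEGs in NA10hd against control numbered 0, and no interferon response count moved by over 1.5 times. DEGs in NA10hd against control were otherwise 240 with DESeq2, 2 with limma-voom, 8 with no filter, 8 with 10 counts in every library, 39 with all 3 groups in 1 fit, 0 with the same sex mix and 0 to 5 with each library left out. In NV against control they were 1015 with DESeq2, 155 with all 3 groups in 1 fit, 301 with the same sex mix and 263 to 643 with each library left out. In NA10hd against NV they were 1495 with DESeq2, 1152 with all 3 groups in 1 fit and 146 to 771 with each library left out.

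The interferon response genes called in NA10hd against control were 1 with DESeq2 and 1 with all 3 groups in 1 fit. In NV against control they were 7 with all 3 groups in 1 fit and 6 to 15 with each library left out. In NA10hd against NV they were 15 with DESeq2, 11 with all 3 groups in 1 fit and 1 to 9 with each library left out. The cause of these shifts was not tested, except that leaving out a library leaves fewer samples. The same-mix alternative gave no value for NA10hd against NV.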
